A study of Homo sapiens with 12 samples.

Results

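Occludin, its MARVEL-domain relatives, the ZO scaffolds and the cingulin and JAM-type proteins build the tight junction together with the claudins, and 9 of their genes are described here: OCLN, MARVELD2, MARVELD3, TJP1, TJP3, CGN, CGNL1, F11R and CXADR. They were chosen by name as membrane and scaffold proteins of the tight junction other than claudins, and each had 1 row among the 26125 rows of the deposited table. The cells were Caco-2, an established line from a human colon tumour that differentiates into a polarised sheet resembling small-intestinal enterocytes. All 12 libraries came from monolayers kept 21 days on transwell filters and moved to transport buffer, with 3 libraries in each of 4 groups. Cells received ochratoxin A (OTA), a mould toxin, at 15 µmol/L together with the bacterium Bacillus subtilis CW14 (the combined group), OTA alone, CW14 alone, or neither (control). Both agents were given to the apical chamber; the exposure time was not given in the sources used here, and the density of the bacteria is printed in the labels in a form that cannot be read with certainty. The labels do not state whether the 3 replicates of a group were cultured apart, so p-values measure the spread between these libraries, which may be technical. By its title, the study addressed an effect of CW14 on the barrier damage that OTA does.

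In an epithelium the tight junction seals the space between neighbouring cells near their apical side. Occludin, tricellulin (the product of MARVELD2) and MARVELD3 each cross the membrane as MARVEL-domain proteins, and tricellulin gathers where 3 cells meet. The ZO proteins bind the tails of claudins, occludin and JAMs from the inside and connect them to actin, while cingulin and paracingulin sit on the cytoplasmic face and bind ZO proteins and actin. JAM-A, encoded by F11R, and CAR, encoded by CXADR, are immunoglobulin-type adhesion proteins of the same contact.

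Promoter sequences of OCLN and TJP1, the members with the largest losses of RNA with OTA besides MARVELD3, are shown beside that of TJP3, a ZO gene with no such loss. They are RefSeq sequences (GRCh38.p14, 250 bases before to 50 after an annotated start, written 5′ to 3′ on the gene's strand), and capitals mark the GC box, GGGCGG on either strand. The deposited data do not show which start the cells used. Of the 9 genes, 6 had at least 1 such window, 11 windows in all.
OCLN, chr5:69492297-69492596, plus strand: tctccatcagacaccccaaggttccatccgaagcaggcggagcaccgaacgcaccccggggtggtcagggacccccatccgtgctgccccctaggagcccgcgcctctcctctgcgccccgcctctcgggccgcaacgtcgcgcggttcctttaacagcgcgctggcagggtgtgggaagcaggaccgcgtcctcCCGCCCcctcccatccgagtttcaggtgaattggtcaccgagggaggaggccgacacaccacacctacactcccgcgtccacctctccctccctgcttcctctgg
TJP1, chr15:29969000-29969299, minus strand: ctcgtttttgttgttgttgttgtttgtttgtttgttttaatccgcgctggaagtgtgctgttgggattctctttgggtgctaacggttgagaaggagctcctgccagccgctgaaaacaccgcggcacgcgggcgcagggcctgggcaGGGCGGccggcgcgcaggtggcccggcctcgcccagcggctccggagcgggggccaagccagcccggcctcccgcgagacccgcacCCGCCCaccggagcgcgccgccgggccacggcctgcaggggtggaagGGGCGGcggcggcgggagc
TJP1, chr15:29822419-29822718, minus strand: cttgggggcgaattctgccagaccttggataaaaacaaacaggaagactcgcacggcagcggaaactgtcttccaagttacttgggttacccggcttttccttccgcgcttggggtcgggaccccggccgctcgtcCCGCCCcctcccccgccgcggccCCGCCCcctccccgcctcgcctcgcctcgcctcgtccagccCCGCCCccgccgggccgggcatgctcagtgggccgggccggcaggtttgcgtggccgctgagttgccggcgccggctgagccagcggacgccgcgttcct
TJP3, chr19:3721487-3721786, plus strand: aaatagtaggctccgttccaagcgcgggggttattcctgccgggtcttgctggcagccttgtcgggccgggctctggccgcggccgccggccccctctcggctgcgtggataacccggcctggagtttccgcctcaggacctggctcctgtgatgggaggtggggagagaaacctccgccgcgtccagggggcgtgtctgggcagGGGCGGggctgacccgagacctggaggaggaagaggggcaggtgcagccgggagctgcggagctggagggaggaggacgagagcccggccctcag
RefSeq lists 1 further start for OCLN, 2 for TJP1 and 1 for TJP3, not printed here. Each TJP1 window printed held 3 GC boxes, the OCLN window 1 and the TJP3 window 1; of the unprinted windows, those of TJP1 held 1 and 0, that of OCLN 0 and that of TJP3 1, and 45% of 35116 windows of this length held at least 1. Guanine and cytosine made up 68% of the OCLN window, 70% and 71.3% of the TJP1 windows and 70.3% of the TJP3 window, as against a median of 58.7% over all windows. The E-box CACCTG, searched on both strands, occurred once in the OCLN window, once in the first TJP1 window and once in the TJP3 window, and in 20.6% of all windows. The EGR motif GCGNGGGCG occurred once, in the second TJP1 window, where it overlaps a GC box, and in 9.43% of all windows. Neither TGANTCA (AP-1, in 7.71% of all windows), TGACGTCA (CRE, 1.85%) nor TATAAA (11.5%) occurred in these 4 windows, and CCAAT (34.6%) occurred once, in OCLN. These matches describe letters and not binding.

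Levels are FPKM as deposited, that is, fragments scaled for transcript length and for the size of the library, so genes can be compared per length; ± is the SD of 3 libraries (n = 3). The values carry no fragment counts, so absolute depth is unknown; from the steps between low values, the libraries' relative depth ran from 0.471 of control replicate 1, in combined replicate 3, to 1.6 times it, in OTA replicate 1. Combined replicate 3 stood apart from all others: its score on principal component 1, which held 35.3% of the variance, was -83.35, as against -32.0 and -21.9 for the other combined libraries, and its residual SD was 0.588 on the log2 scale, as against 0.305 to 0.424 in the remaining 11. The values without it are given for the member differences of the combined group that it moves most and for each count of calls. The epithelial label held in these libraries, with EPCAM at 403 to 707 FPKM and 9 of 11 epithelial markers at 1 FPKM or more in every library; sucrase-isomaltase (SI), an enterocyte hydrolase, was at most 0.148 FPKM and LGALS4 was 0.848 at its lowest. Of 13 immune, endothelial and fibroblast markers, 4 were listed at 0 in every group, among them the leukocyte gene PTPRC and the fibroblast gene COL1A2. Other markers of the same kinds were present in every library. The fibroblast genes LUM and COL1A1 had 1.94 to 6.26 and 0.98 to 4.91 FPKM, and the immune gene CD14 had 5.92 to 17.5 FPKM. The summed level of these 13 ran from 69.0 to 99.0 FPKM in the combined group, 115 to 142 with OTA, 78.0 to 99.4 with CW14 and 90.8 to 108 in controls, and CD68 alone had 49.4 to 127 FPKM. The sum was highest in the OTA libraries, and its part in the results on OTA was not tested. Less RNA per cell and fewer cells of a kind cannot be told apart in such bulk samples.

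**Figure D1:**
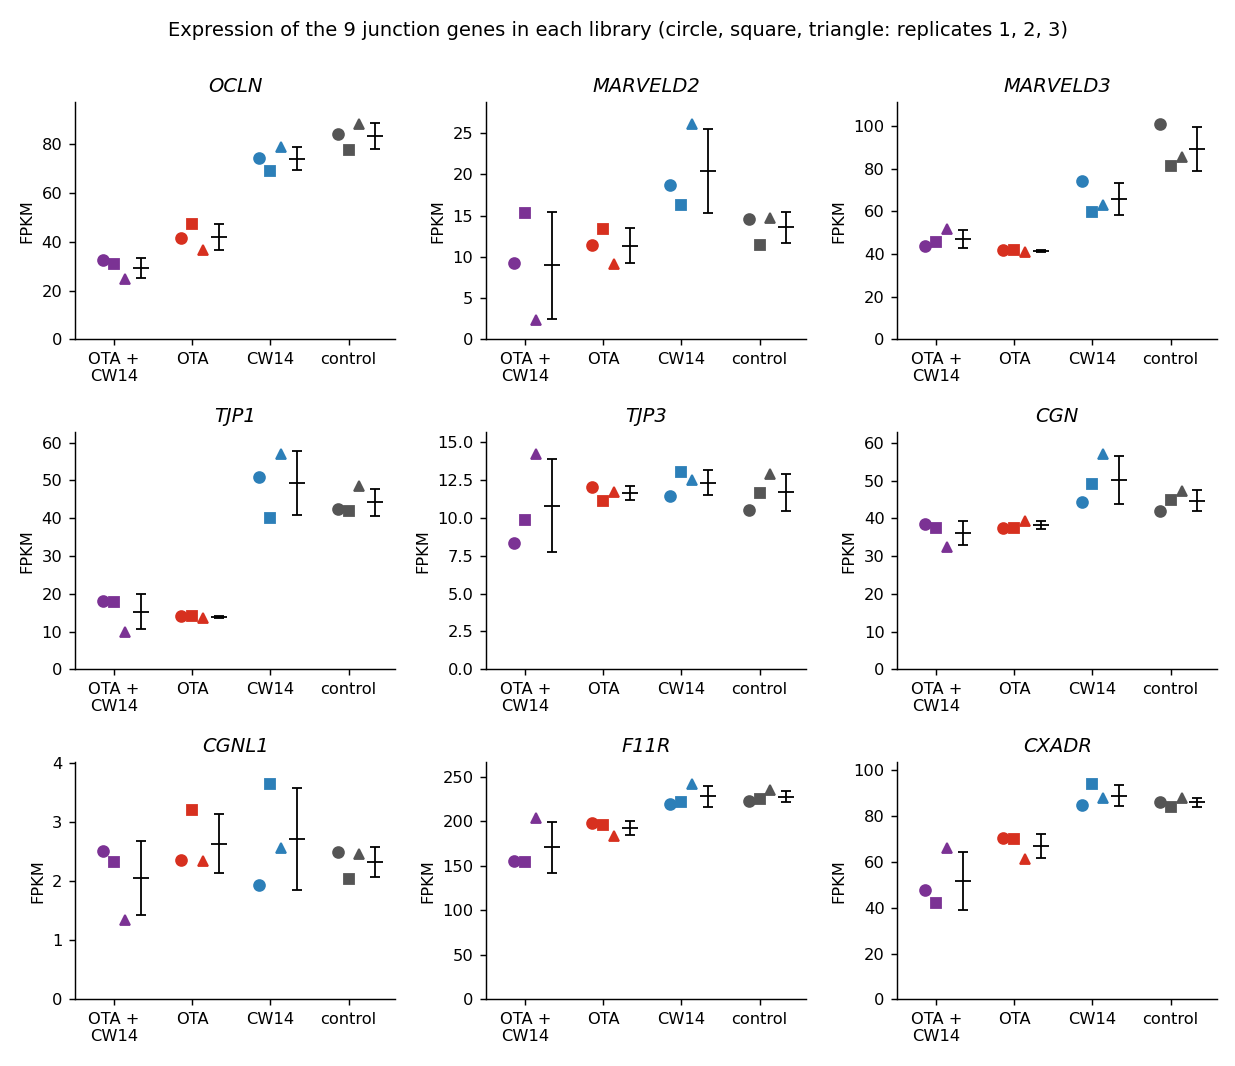
FPKM of each gene in each library, by group; circles, squares and triangles are replicates 1, 2 and 3, and the bar beside them is the mean with its SD. OCLN, MARVELD3, TJP1, CGN, F11R and CXADR sat lower in all 6 libraries with OTA than in any of the other 6. The share of all genes doing so was not computed. For single pairs of groups, every library was lower in 25.7% of tested genes (OTA against control). That share was 22.8% for the combined group against control and 21.9% against CW14. TJP3 stayed between 8.36 and 14.2 FPKM throughout.

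Control cells held these RNAs at very unequal levels. F11R was the highest, at 228 ± 6.58 FPKM, above 97.6% of the tested genes. MARVELD3 (89.2 ± 10.5), CXADR (85.9 ± 1.97) and OCLN (83.4 ± 5.36) followed, and their control libraries overlapped. CGN (44.7 ± 2.74) and TJP1 (44.3 ± 3.57) formed the next pair, also overlapping. MARVELD2 (13.5 ± 1.87) and TJP3 (11.7 ± 1.23) overlapped as well, and CGNL1 was the lowest at 2.33 ± 0.254 FPKM, above 14.6% of the tested genes. All 9 genes passed the filter used for testing, which asked that the 12 libraries average 1 FPKM or more and left 12928 genes. In the presence of OTA alone the order shifted: TJP1, at 13.9 ± 0.269 FPKM, left the level of CGN (38.2 ± 1.07) and came to stand next to TJP3 (11.6 ± 0.490) and MARVELD2 (11.3 ± 2.10), though still above every TJP3 library of the group.

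The first comparison sets OTA against control. Of the 9 genes, 3 fell, 0 rose and 6 were not called; over all genes, 12.9% were called lower and 4.82% higher (limma, adjusted p under 0.05 over all 12928). Occludin, the ZO-1 scaffold TJP1 and MARVELD3 were the 3. The median log2 difference of the 9 was -0.25, as against 0.03 over all tested genes. Of all genes called, 27.2% were higher as deposited and 46.2% after centring each library on its median, which moved the median difference of all genes (deposited minus centred, -0.105); after it OCLN, MARVELD3 and TJP1 stood at -0.88, -0.97 and -1.49 on the log2 scale and were still called. In 6 of the 9 every OTA library was below every control library, which held for 25.7% of all tested genes.

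Among the MARVEL genes, MARVELD3 (chromosome 16, 71660054 to 71675868, hg19 as deposited, as for all loci that follow) had close replicates with OTA and wider ones in controls. Its libraries read 41.8, 41.9 and 40.8 FPKM with OTA and 101, 81.3 and 85.3 FPKM in controls. No OTA library came near a control, and the log2 difference was -1.08 (SE 0.13, limma adjusted p = 0.000125). OCLN (chromosome 5, 68788117 to 68853931) read 41.4, 47.3 and 36.8 FPKM with OTA and 84.3, 77.7 and 88.3 FPKM in controls. Again the groups were well apart, and the mean with OTA was 50.2% of the control mean (log2 difference -0.98, SE 0.14, limma adjusted p = 0.000438). MARVELD2, for tricellulin (chromosome 5, 68710937 to 68737890), read 11.4, 13.4 and 9.18 FPKM with OTA and 14.6, 11.4 and 14.7 FPKM in controls. These groups overlapped, and its log2 difference of -0.25 (SE 0.43) had a 95% interval of -1.19 to 0.70, wide enough to hold the fall seen in OCLN. Much of that width came through the shared spread from combined replicate 3, which is in neither group. Without that library the difference was again -0.25, with an SE of 0.21 and so a narrower interval (limma adjusted p = 0.403).

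Among the ZO scaffolds, TJP1 (chromosome 15, 29991569 to 30261002) carried the largest change of the 9 genes. Its libraries read 14.0, 14.1 and 13.6 FPKM with OTA and 42.4, 42.0 and 48.4 FPKM in controls. The mean with OTA was 31.5% of the control mean, with a log2 difference of -1.6 (SE 0.21, limma adjusted p = 0.000237). TJP3, for ZO-3 (deposited locus chromosome 19, 3708333 to 3987432, a span that takes in 11 further rows of the table), read 12.0, 11.1 and 11.7 FPKM with OTA and 10.5, 11.6 and 12.9 FPKM in controls. Every OTA library lay inside the control range, and the 95% interval of the log2 difference was -0.38 to 0.37, which excludes a fall like that of TJP1.

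The cingulin and adhesion genes moved little with OTA alone, and none of these 4 was called. CGN (chromosome 1, 151483860 to 151511167) read 37.6, 37.5 and 39.4 FPKM with OTA and 41.9, 44.8 and 47.4 FPKM in controls. The groups did not overlap, but the difference was small beside the common spread (log2 difference -0.22, 95% interval -0.49 to 0.05, limma adjusted p = 0.264). F11R (chromosome 1, 160964999 to 160991133) read 198, 196 and 184 FPKM with OTA and 223, 225 and 235 FPKM in controls. CXADR (chromosome 21, 18885222 to 18965897) read 70.2, 69.7 and 61.0 FPKM with OTA and 86.2, 83.8 and 87.7 FPKM in controls. Both were lower in every OTA library, by 0.24 and 0.36 on the log2 scale in size, with limma adjusted p = 0.22 for F11R and 0.133 for CXADR. Without combined replicate 3, which enters this comparison only through the shared spread, both were called (adjusted p = 0.0197 for F11R and 0.0074 for CXADR). They were called as well when only the OTA and control libraries were fitted, so 5 of the 9 were then lower. Over all genes the share called lower was 19% without that library and 19.6% with only these groups fitted, so both were above the 12.9% of the fit to all libraries. CGNL1 (chromosome 15, 57668701 to 57842925) read 2.36, 3.21 and 2.34 FPKM with OTA and 2.49, 2.04 and 2.46 FPKM in controls, which overlap.

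**Figure D2:**
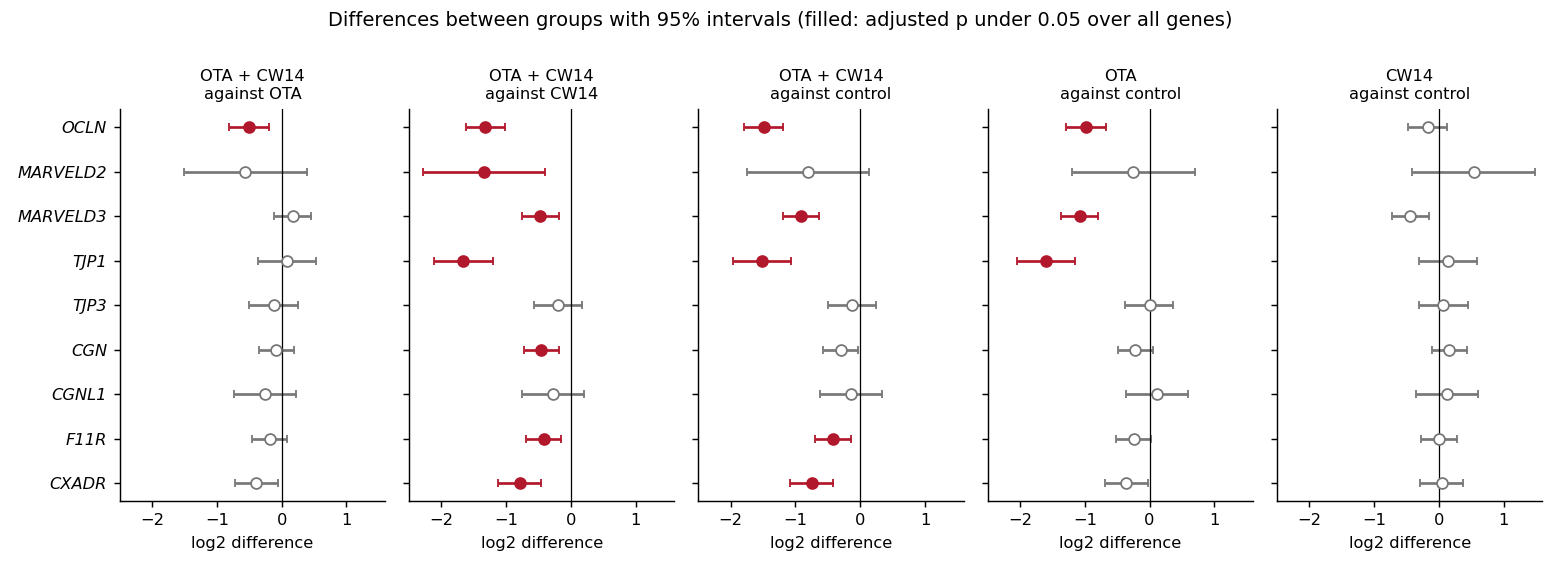
Log2 difference of FPKM + 1 with its 95% interval for each gene (rows) in each comparison (panels); filled points had a limma adjusted p under 0.05 over all tested genes. In the 3 panels that set cells with OTA against cells without it, OCLN, MARVELD2, MARVELD3, TJP1, CGN, F11R and CXADR lie left of 0. TJP3 lies at or left of 0 there. Of these, TJP1, OCLN and MARVELD3 are filled in all 3 panels. OCLN is the only filled point in the panel of OTA plus CW14 against OTA.

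With the bacteria alone, CW14 against control, 0 of the 9 genes were called, against 0.364% of all tested genes (limma; 0 in each of the 22 alternatives, and 1 of the 9 at an unadjusted p under 0.05). That one was MARVELD3, which read 74.0, 59.9 and 63.2 FPKM with CW14 and 101, 81.3 and 85.3 FPKM in controls. The groups did not overlap, as held downward for 10.9% of all tested genes, and the log2 difference was -0.44 (SE 0.13, limma adjusted p = 0.397). MARVELD2 was the other gene without overlap, in the opposite direction, which held for 9.66% of tested genes: it read 18.7, 16.3 and 26.1 FPKM with CW14 and 14.6, 11.4 and 14.7 FPKM in controls (log2 difference 0.54, 95% interval -0.41 to 1.48). OCLN averaged 74.1 ± 4.76 FPKM with CW14 and 83.4 ± 5.36 FPKM in controls, and TJP1 averaged 49.3 ± 8.53 FPKM with CW14 and 44.3 ± 3.57 FPKM in controls. Both pairs of groups overlapped. F11R and CXADR stayed within 0.05 of control on the log2 scale, with 95% intervals of -0.27 to 0.28 and -0.29 to 0.38.

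The combined group against OTA asks whether bacteria changed the RNA levels of cells that also had the toxin. No gene of the 9 was called higher, against 7.79% of all tested genes, and 1 was called lower, against 8.22%. Of the genes called, 48.6% were higher as deposited and 36.7% after median-centring. The gene called lower was OCLN, which read 32.4, 30.8 and 24.6 FPKM in the combined group and 41.4, 47.3 and 36.8 FPKM with OTA. All 3 combined libraries were below all OTA libraries, as in 16.6% of tested genes, and the log2 difference was -0.50 (SE 0.14, limma adjusted p = 0.0312). Its call was lost without OTA replicate 1 or 2, after quantile normalization and with only these 2 groups fitted (adjusted p up to 0.153), while the log2 difference stayed between -0.59 and -0.37. TJP1 read 18.1, 17.8 and 9.86 FPKM in the combined group and 14.0, 14.1 and 13.6 FPKM with OTA. The first 2 of the combined libraries were above and combined replicate 3 below the OTA libraries; the log2 difference was 0.08 (95% interval -0.37 to 0.53), and 0.34 without that library (limma adjusted p = 0.0883). TJP1 in the combined group thus averaged 15.3 ± 4.68 FPKM, a level 34.5% of that in controls. MARVELD3 read 43.8, 45.6 and 51.9 FPKM in the combined group and 41.8, 41.9 and 40.8 FPKM with OTA. All combined libraries were higher, as in 17.8% of tested genes, by a log2 difference of 0.17 (SE 0.13, limma adjusted p = 0.363).

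In the same comparison, CXADR and F11R depended on 1 library. CXADR read 47.5, 41.8 and 65.8 FPKM in the combined group and 70.2, 69.7 and 61.0 FPKM with OTA. F11R read 155, 154 and 204 FPKM in the combined group and 198, 196 and 184 FPKM with OTA. In each gene combined replicates 1 and 2 were close to each other and lay below every OTA library, while combined replicate 3 lay inside the OTA range or above it. With all libraries the log2 differences were -0.39 for CXADR and -0.18 for F11R (limma adjusted p = 0.0981 and 0.332). Without combined replicate 3 both genes were called lower, at -0.57 for CXADR and -0.32 for F11R (adjusted p = 0.00295 and 0.0164), and OCLN stayed called at -0.39 (adjusted p = 0.0315), which made 3 of 9, where 11.8% of all tested genes were called lower. MARVELD2 moved most when that library was left out (log2 difference -0.56 with it and 0.09 without it), with 9.30, 15.3 and 2.36 FPKM in the combined group and 11.4, 13.4 and 9.18 FPKM with OTA. TJP3 read 8.36, 9.84 and 14.2 FPKM in the combined group, CGN read 38.5, 37.4 and 32.5 FPKM and CGNL1 read 2.52, 2.32 and 1.34 FPKM. The 3 overlapped their OTA libraries.

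Between the combined group and controls, OCLN, TJP1, MARVELD3, CXADR and F11R were lower and no gene was higher, 5 and 0 of 9 against 16.8% and 12.0% of all tested genes. OCLN had the smallest p of the 9, at 29.3 ± 4.12 FPKM in the combined group and 83.4 ± 5.36 FPKM in controls (log2 difference -1.49, SE 0.14, limma adjusted p = 1.58e-05). Without combined replicate 3 the same 5 genes were lower, against 19% of all genes, with log2 differences of -1.37 for OCLN, -0.98 for MARVELD3, -0.93 for CXADR and -0.56 for F11R. TJP1 differed by -1.52 on the log2 scale (SE 0.21), or -1.25 without combined replicate 3 (limma adjusted p = 0.000286 and 5.94e-05). CXADR averaged 51.7 ± 12.5 FPKM in the combined group and 85.9 ± 1.97 FPKM in controls, and the call held in all 22 alternatives (limma adjusted p = 0.00403, up to 0.0475). The F11R call (log2 difference -0.42, limma adjusted p = 0.0262) was lost without any single control library, without combined replicate 1 or 2, after quantile normalization and with only these groups fitted (adjusted p up to 0.125). MARVELD2 was called lower only without combined replicate 2 (adjusted p = 0.0215). In 6 genes, the 5 called with all libraries and CGN, no combined library reached the control range, as in 22.8% of tested genes.

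Between the combined group and CW14, where both groups had the bacteria and 1 had the toxin, 7 of the 9 genes were lower and 0 higher, against 17.5% and 14.8% of all tested genes. They were OCLN, MARVELD2, MARVELD3, TJP1, CGN, F11R and CXADR, and in the same 7 no combined library reached the CW14 range, as in 21.9% of tested genes. TJP1 averaged 15.3 ± 4.68 FPKM in the combined group and 49.3 ± 8.53 FPKM with CW14 (log2 difference -1.66, SE 0.21, limma adjusted p = 0.000151). OCLN averaged 29.3 ± 4.12 FPKM in the combined group and 74.1 ± 4.76 FPKM with CW14 (log2 difference -1.32, limma adjusted p = 3.9e-05). MARVELD2 averaged 9 ± 6.5 FPKM in the combined group and 20.4 ± 5.10 FPKM with CW14, a log2 difference of -1.34 that became -0.69 without combined replicate 3 (limma adjusted p = 0.0333 and 0.0437). Its call was lost without any single CW14 library, with no filter on low values and with only these groups fitted (adjusted p up to 0.141). MARVELD3 lost its call without CW14 replicate 1 or combined replicate 1 (log2 difference -0.47, limma adjusted p = 0.0166, up to 0.0953), CGN without CW14 replicate 3 (log2 difference -0.46, adjusted p = 0.0166, up to 0.109) and F11R without CW14 replicate 2 or 3 or combined replicate 1 or 2 (log2 difference -0.42, adjusted p = 0.0236, up to 0.14), and all 3 with only these groups fitted. The count of 7 became 8 without combined replicate 3, through TJP3 (log2 difference -0.40, adjusted p = 0.0293), 4 without CW14 replicate 3 and 3 with only these 2 groups fitted; the share of all genes called lower was 18.7% without combined replicate 3 and 7.87% with only these groups. TJP1, OCLN and CXADR stood at -1.39, -1.20 and -0.98 without combined replicate 3. OCLN, TJP1 and CXADR kept their calls in all 22 alternatives of this comparison.

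Whether the toxin's effect differed with the bacteria present was tested by the interaction, the OTA effect with CW14 minus the OTA effect without it. None of the 9 was called, against 3.33% of all tested genes (limma; 1 of the 9 at an unadjusted p under 0.05). Over all genes, 55.5% of the interactions called were above 0 as deposited and 39.5% after median-centring. MARVELD3 came nearest, at 0.61 on the log2 scale (SE 0.18, limma adjusted p = 0.0757), and CXADR stood at -0.44 (SE 0.22, adjusted p = 0.233). Without combined replicate 3 both passed, MARVELD3 at 0.54 (adjusted p = 0.0421) and CXADR at -0.62 (adjusted p = 0.0144), where 12.3% of all tested genes were called. The 2 signs are opposite. In that fit the toxin's loss of MARVELD3 was smaller with bacteria present (-0.54 as against -1.08), and that of CXADR was larger (-0.98 as against -0.36). With all libraries, where neither interaction was called, the values were -0.47 as against -1.08 for MARVELD3 and -0.79 as against -0.36 for CXADR. Most of the MARVELD3 interaction came from its lower level with CW14 alone, not from a higher level with the toxin. Without combined replicate 3, CW14 differed from control by -0.44 and the combined group from OTA by 0.10, neither called. For CXADR these differences were 0.05, not called, and -0.57, called. For TJP1 the interaction was -0.07 with a 95% interval of -0.70 to 0.57, and for OCLN -0.33 (-0.76 to 0.09). These comparisons share libraries and are not independent of each other.

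**Figure D3:**
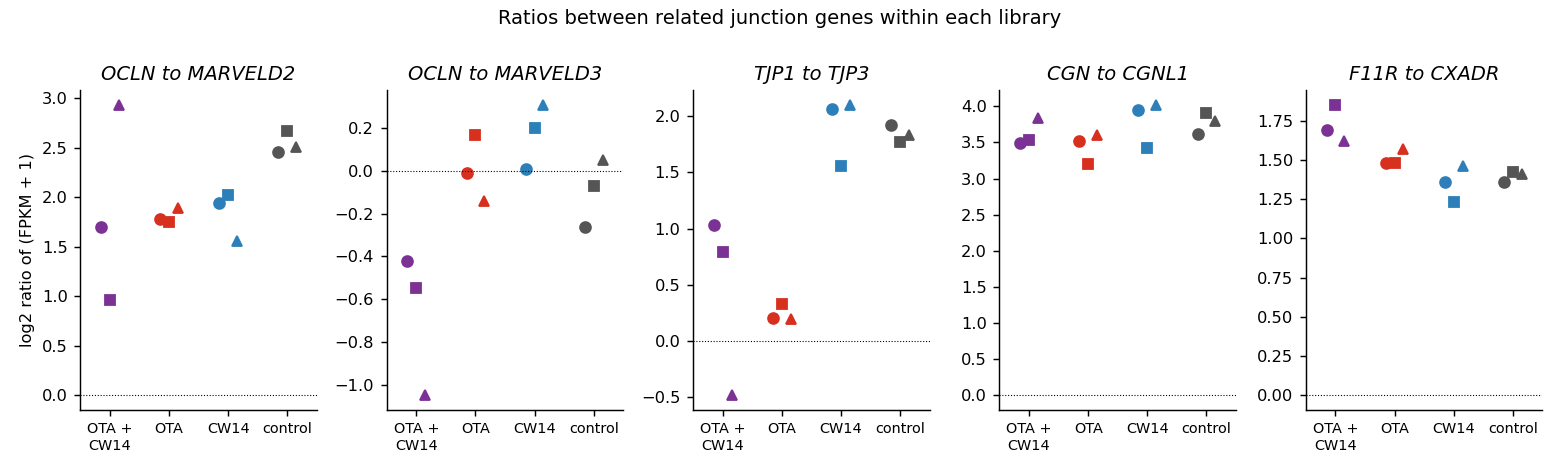
Log2 ratio of FPKM + 1 between related genes within each library (circles, squares and triangles are replicates 1, 2 and 3; the dotted line is equality; the vertical axes differ). TJP1 to TJP3 lay between 0.20 and 0.33 with OTA and between 1.77 and 1.92 in controls, and combined replicate 3 stood at -0.48.

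A ratio of the plain FPKM of 2 genes within a library does not depend on how libraries were scaled to one another, and it is given here without a test. TJP1 was 1.17, 1.28 and 1.16 times TJP3 with OTA and 4.05, 3.62 and 3.75 times TJP3 in controls. In the combined group it was 2.17, 1.81 and 0.695 times TJP3, and with CW14 4.46, 3.09 and 4.57 times. OTA and control libraries were therefore far apart in this ratio, and the combined libraries lay on either side of those with OTA. OCLN was 0.991, 1.13 and 0.903 times MARVELD3 with OTA and 0.834, 0.955 and 1.04 times MARVELD3 in controls, so these 2 genes kept about the same proportion while both fell. In the combined group OCLN was 0.739, 0.676 and 0.474 times MARVELD3, below every library of the other groups. OCLN to MARVELD2 was 3.64, 3.54 and 4.01 with OTA and 5.79, 6.82 and 6.02 in controls, but CW14 alone also had low values, 3.98, 4.24 and 3.02. In the combined group it was 3.48, 2.01 and 10.4, on both sides of every other group. F11R to CXADR ran from 3.10 to 3.68 in the combined group, 2.81 to 3.01 with OTA, 2.36 to 2.77 with CW14 and 2.58 to 2.69 in controls. The combined libraries were the highest in that ratio, combined replicate 3 included. CGN to CGNL1 ran from 11.7 to 24.2 over the 12 libraries. In log2 ratios of FPKM + 1 only OTA and controls did not overlap (at most 3.6 with OTA and at least 3.62 in controls). In plain ratios OTA replicate 3 and control replicate 1 both read 16.8, so that separation rests on the added 1.

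**Figure D4:**
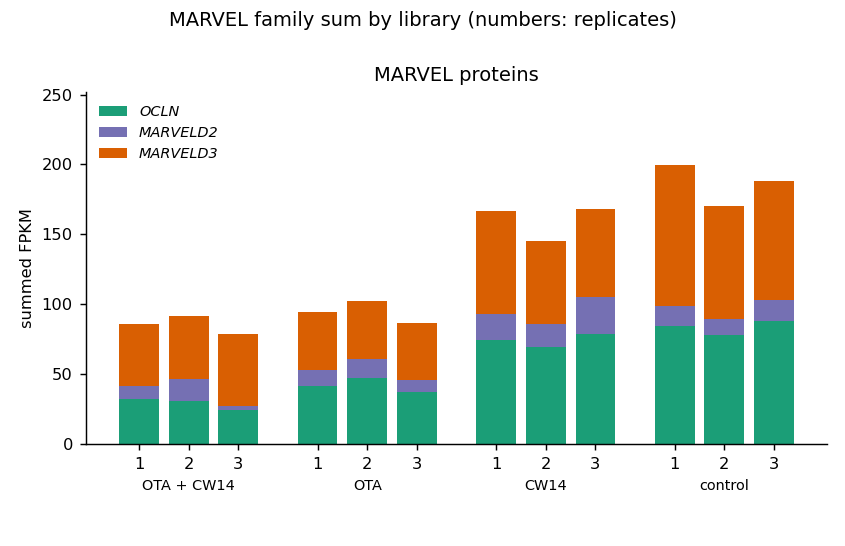
Stacked FPKM of OCLN, MARVELD2 and MARVELD3 in each library, by group and replicate. The MARVEL sum was 78.8 to 103 FPKM in the 6 libraries with OTA and 145 to 200 FPKM in those without it, and the OCLN and MARVELD3 segments made up most of it in each library.

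Summed over the family, MARVEL transcripts came to 85.3 ± 6.47 FPKM in the combined group, 94.6 ± 7.89 with OTA, 160 ± 12.8 with CW14 and 186 ± 14.9 in controls. OCLN was 34.2 ± 3.38% of that sum in the combined group, 44.1 ± 1.86% with OTA, 46.3 ± 1.6% with CW14 and 44.9 ± 2.45% in controls. MARVELD2 made up 2.99% of it in combined replicate 3, as against 10.9% and 16.7% in the other combined libraries. The JAM-family genes JAM2 and JAM3, with means of 0.339 and 0.756 FPKM over all libraries, did not pass the filter.

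Other tight junction genes were read from a list of 71 partner symbols (claudins, polarity proteins, junction kinases and cytoskeletal links), of which 67 were in the table and 53 were tested. INADL, MPP5, CSDA and MLLT4 were also listed under their newer symbols PATJ, PALS1, YBX3 and AFDN. The list therefore holds fewer genes than symbols, and a symbol missing from the table need not be a missing gene. With OTA, 6 of the 53 (11.3%) were lower and 3 (5.66%) higher, near the shares over all genes. AMOTL2, an angiomotin family scaffold (14.7 ± 3.98 FPKM with OTA and 65.5 ± 2.21 in controls), claudin-4 (CLDN4, in a row with the same deposited locus as CLDN3, 412 ± 60.7 with OTA and 1770 ± 60.7 in controls) and PARD6B, a polarity protein (25.6 ± 5.46 with OTA and 98.3 ± 7.80 in controls), fell most, by log2 differences of -2.11, -2.11 and -1.92. PRKCZ, CLDN16 and PTPRJ were the 3 that rose (log2 differences 1.27, 0.93 and 0.60). PRKCZ, an atypical protein kinase C, did so at 3.67 ± 1.29 FPKM with OTA and 1.06 ± 0.932 in controls, 1 control library being listed at 0. With CW14 alone 0 of the 53 were called. In the combined group against OTA, 6 (11.3%) were lower, led by CLDN16, CLDN1 and PRKCI (-1.37, -0.98 and -0.80), and 2 (3.77%) higher, AMOTL2 and PARD6A (0.85 and 0.76), against 8.22% and 7.79% of all genes. Against controls the combined group had 12 lower (22.6%) and 4 higher (7.55%); PARD6B, CLDN4 and CLDN23 fell most (-2.37, -2.29 and -1.79), and PARD6A, CTTN and RAB3B led the rises (1.11, 0.53 and 0.39), against 16.8% and 12.0% of all genes. Against CW14 it had 14 lower (26.4%) and 4 higher (7.55%), with CLDN4, PARD6B and CLDN23 (-2.43, -2.22 and -2.15) and PARD6A, SYMPK and LLGL1 (1.41, 0.69 and 0.60) at the ends, against 17.5% and 14.8% of all genes. The interaction was called for PARD6A (1.06) and CLDN16 (-1.56). Without combined replicate 3 the partners called were 9 lower and 12 higher with OTA (19% and 14.7% of all genes). In the combined group they were 9 and 2 against OTA (11.8% and 9.41% of all genes) and 14 and 4 against control (19% and 13.7%). Against CW14 they were 15 and 4 (18.7% and 15% of all genes), and for the interaction 5 and 1 (6.29% and 6.05%). CLDN1 then stood at -0.60 in the combined group against OTA and CLDN23 at -1.19 against control, both still called, and RAB3B lost its call against control (limma adjusted p = 0.0539).

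The genes whose pattern over the 12 libraries was most like that of OCLN were CEBPG, a bZIP transcription factor, AJUBA, a LIM-domain protein of cell junctions, and STRN3, a striatin. Likeness was the root-mean-square difference of log2 values centred on each gene's mean, among 9075 genes averaging 5 FPKM or more, and it was 0.10 for CEBPG, 0.13 for AJUBA and 0.13 for STRN3. CEBPG averaged 51.4 ± 6.63 FPKM in the combined group, 70.9 ± 8.97 with OTA, 126 ± 11.2 with CW14 and 141 ± 3.85 in controls. Nearest to TJP1 were JOSD1, a deubiquitinase (0.12), RAP2B, a small GTPase (0.14), and KIAA0232 (0.14). JOSD1 averaged 24.7 ± 4.88 FPKM in the combined group, 25.2 ± 1.01 with OTA, 83.1 ± 12.7 with CW14 and 77.6 ± 7.98 in controls. Among the 9 genes themselves (CGNL1 was below this level), likeness was computed only to OCLN and TJP1. OCLN and TJP1 differed by 0.36, and OCLN and MARVELD3 likewise by 0.36. The genes named before were picked as the smallest differences among 9075, so the members cannot be ranked fairly against them.

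Replicate spread differed between groups. The coefficient of variation was 1.93% for TJP1 and 1.47% for MARVELD3 with OTA, as against 30.7% and 8.97% in the combined group, where the median of all tested genes was 28.6%, and 11.7% with OTA. TJP1 and MARVELD3 had the lowest values of the members with OTA. CGNL1 (18.7%), MARVELD2 (18.5%) and OCLN (12.5%) were above the OTA median, and OCLN had only 14.1% in the combined group. Fragments of OCLN, TJP1 and CXADR could be shared with pseudogenes that RefSeq lists for them, OCLNP1, TJP1P1 and 3 of CXADR; how such fragments were assigned is not given in the sources used here. Of these, 2 had rows in the table, CXADRP2 with at most 0.898 FPKM and CXADRP3, listed at 0 throughout.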

How the data were processed

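Gene expression was measured by RNA sequencing of 12 Caco-2 libraries in 4 groups of 3, taken from the sample titles. The values are FPKM per gene and library as deposited by the authors. The submitters' processing notes name hg19, Cufflinks 2.2.1, Cuffdiff, Cuffnorm, TopHat2 2.0.13 and cutadapt 1.10; which of these made the values, with what annotation and scaling, is not stated. Loci are printed as deposited. The file holds no counts, so absolute depth is unknown; relative depth was the most common ratio of values under 0.3 FPKM to control replicate 1 (tolerance 0.01, log2).

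Values were analysed as log2(FPKM + 1), which understates the change of low genes, for the 12928 genes averaging 1 FPKM or more. limma 3.58.1 in R 4.3.3 estimated 4 group means from the 12 libraries together, with an intensity trend; tests were two-sided, with Benjamini-Hochberg adjustment across every gene tested; called means an adjusted p under 0.05. The script was tested on simulated data. In 28 rows a date stands in place of a symbol, and none is named. Members, lists and tests were chosen with earlier results of these data known, and the family sums, promoter windows and motifs after the values here were seen. All 9 members are named, with up to 3 called partners per direction and the 3 genes most like OCLN and TJP1. Replicate numbers did not pair the libraries: of 18 same-number pairs, 1 had deviations correlated above 0.1 (range -0.15 to 0.154). Alternatives were pseudocounts of 0.1 and 0.5, other filters and scalings, array weights, only the compared groups, a replicate block and leaving out each library. Array weights were estimated gene by gene, since limma's default estimate stopped before convergence; this, and the partner counts without combined replicate 3, were chosen after seeing the data. Protein sequences were not used here, and 1 related gene is not reported here.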

Additional observations from a re-analysis of the deposited data

Results flagged for a closer look

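MARVELD3 had all its CW14 libraries on one side of controls and all its combined libraries on the other side of OTA, although neither difference was called (limma adjusted p = 0.397 and 0.363). Every CW14 library lay below every control library (74.0, 59.9 and 63.2 against 101, 81.3 and 85.3 FPKM), and every combined library lay above every OTA library (43.8, 45.6 and 51.9 against 41.8, 41.9 and 40.8 FPKM). The former held for 10.9% of all tested genes and the latter for 17.8%. The share of genes with both was not computed. The interaction was 0.61 on the log2 scale (limma adjusted p = 0.0757), so the difference between the effects did not pass the test with all libraries. It passed without combined replicate 3 (0.54, adjusted p = 0.0421) and with array weights, and over the alternatives its adjusted p ran from 0.0369 to 0.159. Groups of 3 libraries were too small to screen for single outlying values.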

How the results depend on the processing

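The 3 calls of OTA against control (OCLN, MARVELD3 and TJP1) held in all 22 alternatives. The number of the 9 genes called there was 3 to 5 when each library was left out in turn, 5 with only the groups compared and 6 with array weights. For the combined group against OTA the count of 1 became 0 after quantile normalization, 0 with only the groups compared and 5 with array weights, and ranged from 0 to 3 when each library was left out. With array weights TJP1 was called higher (log2 difference 0.33, limma adjusted p = 0.0412), and OCLN, TJP3, F11R and CXADR were called lower. That setting called 34.2% of all tested genes in either direction. Against CW14 the combined group's count of 7 became 3 with only the groups compared, 6 with no filter and 8 with array weights. When each library was left out, that count ranged from 4 to 8. Against control the combined group's count of 5 became 4 after quantile normalization, 4 with only the groups compared and 6 with array weights. When each library was left out, it ranged from 4 to 5. The interaction count of 0 became 3 with array weights, which gave combined replicate 3 a weight of 0.0847 and the other libraries 0.568 to 2.7, and ranged from 0 to 2. CW14 against control had 0 in every alternative. With the replicate block the counts were 3 for OTA, 0 for CW14, 1, 5 and 7 for the combined group (set against OTA, control and CW14) and 0 for the interaction, the same as without it. Over all genes, the number called ranged, when each library was left out, from 1299 to 4364 around 2288 for OTA, from 4 to 123 around 47 for CW14, from 653 to 3388 around 2070 for the combined group against OTA, from 2265 to 4776 around 3729 against control, from 2780 to 5297 around 4179 against CW14, and from 17 to 1595 around 431 for the interaction. With only the compared groups these counts were 4621, 35, 70, 1596 and 1521, and with array weights 5417, 195, 4425, 5902, 5405 and 3082. The interaction over all genes was 286 with the replicate block and 235 with no filter, and CW14 had 25 with no filter. Median-centring changed no member's call. Array weights were estimated gene by gene because limma's default estimate stopped before convergence, giving combined replicate 1 a weight of 32.2; the change was made after its counts had been seen, which were 6 for OTA, 0 for CW14, 5, 8 and 8 for the combined group (against OTA, control and CW14) and 5 for the interaction. Ranking likeness by Pearson correlation put CEBPG, AJUBA and STRN3 at 5, 15 and 21 for OCLN, and JOSD1, RAP2B and KIAA0232 at 2, 1 and 3 for TJP1. Only the compared groups could not be used for the interaction, and CGNL1 was not tested where a mean of 5 FPKM was asked. No called single-gene value changed sign. The cause of these changes was not tested.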
